A study of Mus musculus with 7 samples.

Results

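The Rab GTPases of vesicle traffic were examined in alveolar macrophages, which live in the airspaces of the lung and clear inhaled material, with and without the ubiquitin ligases Siah1a and Siah2. The members were the protein-coding genes whose symbol is Rab followed by a number and its suffix, 59 of 47643 genes in the deposited table, of which 21971 are protein-coding. Of these, 42 had a mean of at least 1 TPM (a length-scaled share of the transcripts of each library) over the libraries and were tested, and 17 did not. The members were grouped by the compartment each is best known for: 8 of the early endosome, 9 of the recycling endosome, 11 of the late endosome and lysosome, 13 of the secretory route to the plasma membrane, 13 of the endoplasmic reticulum (ER) and Golgi, and 5 others. Several Rabs work at more than one of these sites, so the grouping is a simplification.

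Rab proteins are small GTPases that mark the membranes of the cell and switch between a GTP-bound form, which recruits effectors such as tethers and motors, and a GDP-bound form, which is held in the cytosol. Exchange factors switch a Rab on, GTPase-activating proteins (GAPs) switch it off, and a lipid anchor added at the C terminus ties it to the membrane. In macrophages the passage from Rab5 to Rab7 turns a new phagosome or endosome into one that fuses with lysosomes, and other Rabs return receptors to the surface or release stored cargo.

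Poly(A) RNA was sequenced from cells sorted, per the labels, for CD11c, F4/80 and SiglecF. There were 3 libraries labelled WT, 3 from cSiah1a/2f/f::Lyz2cre animals, in which Cre is expressed from the lysozyme M gene Lyz2, and 1 from a cSiah1a/2f/f::CD11ccre animal or pool, in which Cre is driven by the promoter of CD11c. Both Cre lines share the floxed Siah1a and Siah2 alleles, and the labels do not say whether WT carries Cre or floxed alleles, or give age, sex, strain background or separate animals, so p-values measure the spread between these libraries only. Lyz2cre is known to act in other myeloid cells as well, and CD11c is also made by dendritic cells. The comparison asks how loss of the 2 ligases alters the macrophages.

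The targets fell, Siah1a from 6.72 to 16.59 TPM for WT to at most 0.05 TPM for Lyz2cre and a listed 0 in CD11ccre, and Siah2 from 12.69 to 17.33 TPM to between 1.45 and 1.95 TPM and 1.21 TPM. Lyz2 stood at 72.56 to 86.25 TPM for WT, 46.62 to 61.89 TPM for Lyz2cre and 50676 TPM for CD11ccre. The Lyz2cre libraries were all below WT without passing (limma adjusted p = 0.0633), and CD11ccre was far above both. The labels do not account for the low Lyz2 of WT. Both comparisons with CD11ccre thus also carry a difference in Lyz2, and its part in the results on Rab genes was not tested. All 12 alveolar macrophage markers averaged above 1 TPM, with summed levels of 29763 to 33036 TPM for WT and 61842 to 76814 TPM for Lyz2cre, most of it Chil3. Without Chil3 the order of the sums turned, to 9840 to 10099 TPM for WT, 7957 to 8716 TPM for Lyz2cre and 7602 TPM for CD11ccre. In Lyz2cre Chil3, Car4, Fabp4 and Marco rose, and Ear2 (6504 to 2697 TPM in the mean, adjusted p = 0.00441), Cidec (325 to 132 TPM, 0.00726) and Siglecf fell. The sorting marker Siglecf itself averaged 231 TPM for WT and 84.5 TPM for Lyz2cre (limma adjusted p = 0.00746). Krt79 averaged 522 and 219 TPM, with all Lyz2cre libraries below WT, and was not called (0.0654). Itgax (0.186), Mertk (0.206), Adgre1 (0.235) and Pparg (0.943) were not called in Lyz2cre either. Neutrophil markers summed to 44.8 to 94.01 TPM for WT and 105.94 to 141.63 TPM for Lyz2cre, with Ly6g, Camp and Ngp at 0 in every library. The higher sum was carried by S100a8, which averaged 24.9 and 100.9 TPM (limma adjusted p = 0.00985). Cxcr2 averaged 2.76 and 5.50 TPM (0.206), also with all Lyz2cre libraries above WT. Csf3r, in contrast, averaged 21.2 and 8.38 TPM (0.0392) and S100a9 19.8 and 4.40 TPM (0.117), each with all Lyz2cre libraries below WT. B and plasma cell markers summed to 6.78 to 20.42 and 0.42 to 2.76 TPM, T and NK cell markers to 2.74 to 13.27 and at most 2.08 TPM, dendritic cell markers to 14.16 to 32.47 and 5.88 to 10.99 TPM, monocyte and interstitial macrophage markers to 40.36 to 62.16 and 51.88 to 64.64 TPM, and alveolar type 2 markers to 88.44 to 95.77 and 78.6 to 97.3 TPM. Those of eosinophils, basophils and mast cells were at 0 throughout. Within the dendritic cell sum Batf3 averaged 14.9 and 0.98 TPM (limma adjusted p = 0.0374), while Clec9a averaged 0.593 and 1.80 TPM (0.178). The monocyte sum was mostly Apoe (43.7 and 49.6 TPM), while Ccr2 averaged 4.66 and 0.743 TPM (0.0360). Of the type 2 markers, Napsa averaged 52.6 and 30.1 TPM (0.120). Sftpc averaged 18.1 and 29.7 TPM (0.217), Sftpb 1.57 and 3.82 TPM (0.0932) and Sftpa1 2.60 and 6.18 TPM (0.138). The part of these cells in the results on Rab genes was not tested, and in bulk libraries fewer cells of a type and less RNA per cell cannot be told apart. Depth cannot be read from TPM. The genes that reached 1 TPM numbered 11348 to 11518 per WT library, 11107 to 11212 per Lyz2cre library and 10883 in CD11ccre, and mitochondrial genes took 7.54% to 9.25%, 2.67% to 4.61% and 4.23% of the TPM, so both measures moved with genotype and their part in the results was not tested. Together, Ftl1, Fth1, Chil3 and Lyz2 took 4.91% to 5.30% of the TPM for WT, 14.5% to 16.3% in Lyz2cre and 19.1% in CD11ccre.

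In WT macrophages the family was led by Rab7, Rab11a and Rab5c, which averaged 319, 293 and 288 TPM; with Rab14 and Rab1a they held 43.6% of the family's TPM. Rab7 directs late endosomes and phagosomes to lysosomes, Rab11a runs the recycling endosome, and Rab5c is one of the Rab5 forms that build early endosomes. The next in order were Rab14 at 167 TPM, Rab1a at 159 TPM and Rab8b at 142 TPM. The ranges of Rab7 (315.25 to 323.81 TPM), Rab11a (278.89 to 318.92 TPM) and Rab5c (237.55 to 332.39 TPM) overlapped, as did those of Rab14, Rab1a and Rab8b, while every library of the first 3 lay above every library of the next 3. Within paralogue sets 1 gene usually led, with Rab5c above Rab5a (62.7 TPM) and Rab5b (44.6 TPM), Rab11a above Rab11b (128 TPM), Rab7 above Rab7b (17.7 TPM), and Rab27a (10.9 TPM) above Rab27b, which was listed at 0 in every WT library. The lysosome-related organelle gene Rab32 stood at 115 TPM, while its close relative Rab38 was listed at 0 in all WT and Lyz2cre libraries and at 0.6 TPM for CD11ccre.

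**Figure D1:**
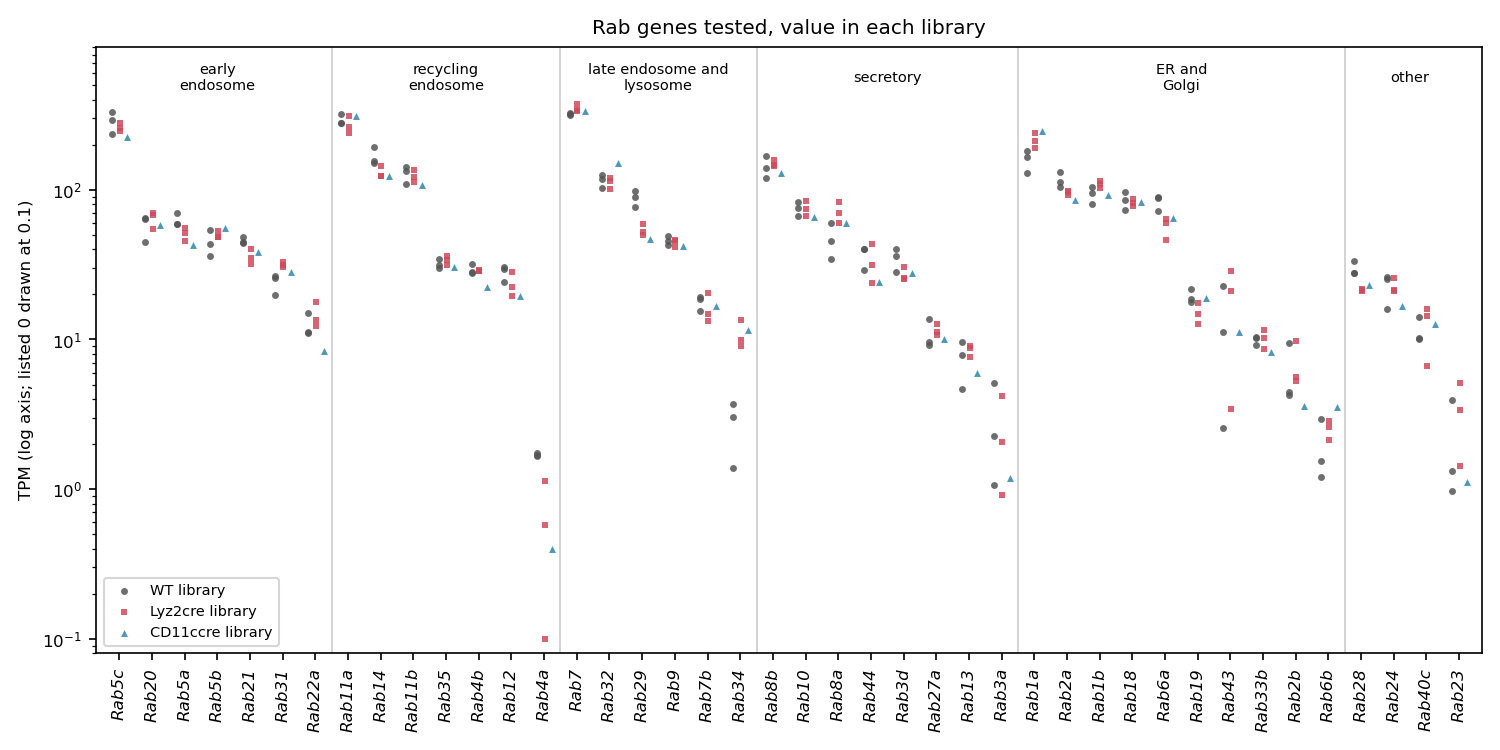
TPM (log axis) of the 42 tested Rab genes in each of the 7 libraries, grouped by compartment and ordered by mean level within each group; circles are WT, squares Lyz2cre and triangles CD11ccre. Most genes show overlapping groups, while the Rab34 libraries of WT lie at 1.39 to 3.71 TPM, below those of Lyz2cre at 9.04 to 13.52 TPM.

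In Lyz2cre against WT, 1 Rab gene rose and 1 fell. Both were placed in the late endosome and lysosome group, but both are also Rabs of the Golgi, so their shared group rests on the assignment. Rab34 rose 3.99-fold and Rab29 fell 1.64-fold, while the other 40 tested members did not pass. An unadjusted p below 0.05 was reached by 9 of the 42 (21.4%), beside 24.6% of all tested genes, and the counts of this kind given for each group of Rabs are to be read against that share. The shares of all 11397 tested genes called higher and lower were 2.17% and 4.60%, or 6.76% in either direction, so 2 of 42 Rab genes is near the background. Over all genes 247 were higher and 524 lower, and with median-of-ratios scaling, which moves the median gene from -0.16 to 0.00 (log2), the split was 337 higher and 207 lower. The median log2 fold change of the 42 Rab genes was -0.01, beside that of -0.16 for all genes. With that scaling it was 0.18 over 41 Rab genes.

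Rab34 is a Rab of the Golgi and of macropinosomes that binds the lysosomal effector RILP and is known for positioning lysosomes near the nucleus and for building cilia. It lies on chromosome 11 (78188430 to 78192193, plus strand, mm10), and no other gene of GENCODE M21 overlaps it. It stood at 1.39, 3.04 and 3.71 TPM for WT, 9.88, 9.04 and 13.52 TPM for Lyz2cre and 11.58 TPM for CD11ccre. All 3 Lyz2cre libraries were above all WT libraries, and the CD11ccre library lay among those of Lyz2cre. The log2 fold change on the log2(TPM + 1) scale was 1.71 ± 0.30 (SE, limma adjusted p = 0.0206) for Lyz2cre and 1.82 ± 0.43 (SE, adjusted p = 0.0696) for CD11ccre, which did not pass. The Lyz2cre call ended without WT replicate 2 (0.0566), without Lyz2cre replicate 1 (0.0646), replicate 2 (0.0592) or replicate 3 (0.0882), and with no filter on low values (0.0773). For CD11ccre it passed with protein-coding genes alone (0.0390).

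Rab29 works at the trans-Golgi network, endosomes and stressed lysosomes and is known for recruiting the kinase LRRK2. It lies on chromosome 1 (131867224 to 131872887, plus strand) and overlaps no other annotated gene. It stood at 97.85, 89.42 and 76.78 TPM for WT, 52.52, 58.68 and 49.95 TPM for Lyz2cre and 46.73 TPM for CD11ccre. Here every Lyz2cre library was below every WT library, and CD11ccre was the lowest of all 7. The log2 fold change was -0.70 ± 0.13 (SE, limma adjusted p = 0.0289) for Lyz2cre and -0.89 ± 0.19 (SE, adjusted p = 0.0567) for CD11ccre. The Lyz2cre call ended with median-of-ratios scaling, where the log2 fold change was -0.52 (adjusted p = 0.0670), and when WT replicate 1 (0.0833) or 2 (0.0851) was left out, or any 1 of the Lyz2cre libraries (0.0944, 0.0626 and 0.106). Its partner Lrrk2 averaged 12.7 TPM in both WT and Lyz2cre (adjusted p = 0.933), with 22.42 TPM for CD11ccre (adjusted p = 0.282).

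The bases before the start of these 2 genes are shown because they are the called members of the family. The sequences are from RefSeq (GRCm38.p6), 5′ to 3′ on the plus strand, chr11:78188177-78188426 for Rab34 and chr1:131867027-131867223 for Rab29, the latter stopped where GENCODE M21 begins its first exon. Capitals mark matches, on either strand, to CACGTG (the E-box core bound by TFEB, a regulator of lysosomal genes), TGACNNNGC (the antioxidant response element bound by NRF2) or ACGTG (the core bound by HIF, which CACGTG contains).
Rab34: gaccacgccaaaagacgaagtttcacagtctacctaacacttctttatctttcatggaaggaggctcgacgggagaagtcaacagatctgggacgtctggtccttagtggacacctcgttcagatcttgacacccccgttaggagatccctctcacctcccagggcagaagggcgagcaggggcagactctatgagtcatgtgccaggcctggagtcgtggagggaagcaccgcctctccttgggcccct
Rab29: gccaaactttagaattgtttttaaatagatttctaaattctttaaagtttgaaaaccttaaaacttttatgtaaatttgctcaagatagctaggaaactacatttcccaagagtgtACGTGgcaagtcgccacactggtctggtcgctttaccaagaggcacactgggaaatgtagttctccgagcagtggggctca
The Rab34 window held none of the 3 motifs, and Rab29 held 1 ACGTG. Over the 32851 promoters of the table, cut to the 250 bases before the start, 6.02% held CACGTG, 10.2% TGACNNNGC and 16.6% ACGTG. Among the 46 promoters of the 37 tested Rab genes that matched by symbol, the shares were 10.9%, 13.0% and 19.6%. A match is a description of the letters and not a bound site.

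**Figure D2:**
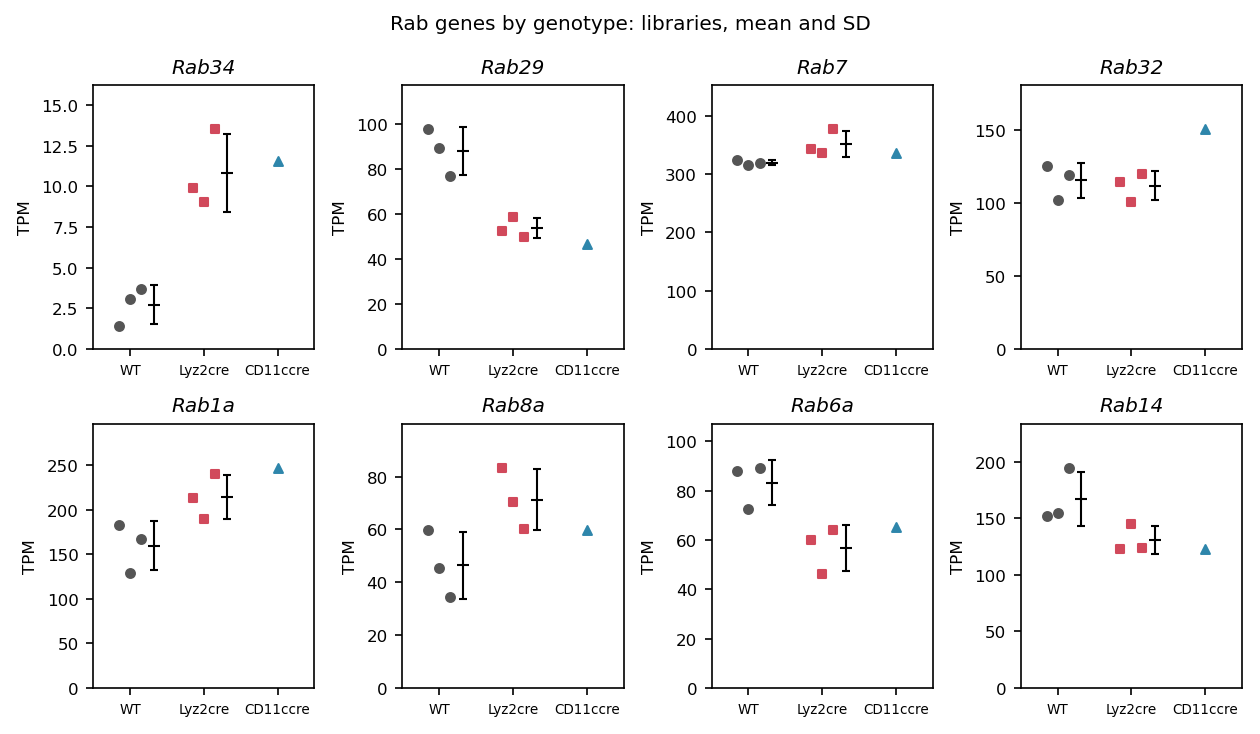
TPM (linear axis from 0) of 8 Rab genes in each library, with the mean and SD of the WT and Lyz2cre groups drawn beside the points. The groups of Rab34 and Rab29 are apart and passed limma; those of Rab1a, Rab8a, Rab6a, Rab14 and Rab7 do not overlap either but did not pass, and those of Rab32 overlap.

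Other Rabs of late endosomes and lysosomes differed little. Rab7 stood at 323.81, 315.25 and 319.02 TPM for WT, 342.59, 336.4 and 377.28 TPM for Lyz2cre and 335.67 TPM for CD11ccre. The Lyz2cre libraries were all above WT, by 1.10-fold in the mean, but the log2 difference of 0.14 had a 95% interval of -0.08 to 0.36 (limma adjusted p = 0.408). Rab32, which with Rab38 serves lysosome-related organelles, stood at 125.32, 102.14 and 118.99 TPM for WT, 114.07, 100.77 and 120.02 TPM for Lyz2cre and 150.55 TPM for CD11ccre. WT and Lyz2cre overlapped (adjusted p = 0.863), and the higher CD11ccre value did not pass against WT (0.254). Rab9, which returns mannose 6-phosphate receptors from late endosomes to the Golgi, averaged 45.6 and 44.3 TPM for WT and Lyz2cre, and Rab7b 17.7 and 16.1 TPM. The summed level of the whole group was 589 TPM ± 18.9 in WT, 589 TPM ± 28.7 in Lyz2cre (SD, n = 3 each) and 605.23 TPM for CD11ccre.

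Among the early endosome Rabs 0 of 7 tested members passed limma, and 2 had an unadjusted p below 0.05. Rab5c, the main Rab5 form here, stood at 332.39, 293.01 and 237.55 TPM for WT, 278.12, 258.21 and 248.52 TPM for Lyz2cre and 224.83 TPM for CD11ccre. WT spanned the Lyz2cre range (log2 fold change -0.12, 95% interval -0.45 to 0.20). Rab5a stood at 58.98, 59.39 and 69.68 TPM for WT and 51.66, 45.75 and 55.66 TPM for Lyz2cre, with 42.81 TPM for CD11ccre. Its Lyz2cre libraries were all below WT, yet the difference of -0.29 was not called (adjusted p = 0.227). Rab21, which handles integrin uptake, stood at 44.46, 43.91 and 48.37 TPM for WT, 35.26, 32.05 and 40.24 TPM for Lyz2cre and 38.3 TPM for CD11ccre (adjusted p = 0.167 for Lyz2cre). Rab31, a relative of Rab22a that acts between the Golgi and endosomes, went the other way, at 26.44, 19.76 and 25.57 TPM for WT, 30.39, 33.04 and 31.25 TPM for Lyz2cre and 28.38 TPM for CD11ccre (0.164). Both sets of libraries were apart without passing. Rab20, tied to phagosome maturation in macrophages, stood at 65.15, 63.63 and 45.14 TPM for WT, 69.79, 67.38 and 54.38 TPM for Lyz2cre and 58.13 TPM for CD11ccre, with overlapping groups (log2 fold change 0.15, adjusted p = 0.666). Rab5b averaged 44.6 and 50.1 TPM and Rab22a 12.4 and 14.6 TPM for WT and Lyz2cre. About 10.5% of the 75-base windows of Rab5b transcripts also occur in a transcript of another gene, so its reads could be split, and the same holds for 8.95% of the windows of Rab7 (with the pseudogene Rab7-ps1) and 8.29% of those of Rab11b.

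Of the recycling endosome Rabs 0 of 7 tested passed limma, with 1 at an unadjusted p below 0.05. Rab11a stood at 318.92, 280.43 and 278.89 TPM for WT, 310.13, 239.95 and 261.02 TPM for Lyz2cre and 313.41 TPM for CD11ccre, with overlapping groups (log2 fold change -0.12, 95% interval -0.42 to 0.18). Rab14, which shuttles between endosomes and the Golgi and delays phagosome maturation, stood at 152.07, 154.73 and 194.68 TPM for WT, 122.73, 145 and 124.14 TPM for Lyz2cre and 123.28 TPM for CD11ccre. Its Lyz2cre libraries were all below WT, 1.28-fold in the mean, and were not called (adjusted p = 0.173). Rab4a, of rapid recycling, was low, at 1.68, 1.74 and 1.67 TPM for WT, a listed 0, 0.58 and 1.13 TPM for Lyz2cre and 0.4 TPM for CD11ccre (0.241). Rab35, Rab4b, Rab12 and Rab11b averaged 31.9, 29.4, 28.2 and 128 TPM for WT and 34.0, 28.8, 23.3 and 123 TPM for Lyz2cre, all with overlapping libraries. Of Rab4b, 77.6% of the 75-base windows are shared with the overlapping model Gm21983, so its value is uncertain.

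The secretory Rabs carry vesicles to the plasma membrane, and 0 of 8 tested passed limma, with 1 at an unadjusted p below 0.05. That 1 was Rab8a, of Golgi-to-surface traffic and of damaged lysosomes, which stood at 59.63, 45.44 and 34.28 TPM for WT, 83.24, 70.3 and 60.16 TPM for Lyz2cre and 59.6 TPM for CD11ccre. Lyz2cre lay above WT by a gap of less than 1 TPM between the nearest libraries, with a log2 fold change of 0.63 (95% interval 0.12 to 1.14, adjusted p = 0.134). Rab8b, its more abundant paralogue here, stood at 139.01, 119.45 and 167.11 TPM for WT, 159.31, 144.77 and 145.99 TPM for Lyz2cre and 129.74 TPM for CD11ccre, and overlapped (0.743). Rab10, which also serves delivery to the surface, stood at 75.54, 67.33 and 82.58 TPM for WT, 83.87, 66.85 and 74.45 TPM for Lyz2cre and 66.22 TPM for CD11ccre. The 2 genotypes could not be told apart there, with a 95% interval of -0.32 to 0.32. Rabs of regulated secretion were lower: Rab44, a large Rab of immune cells, averaged 36.6 and 33.0 TPM for WT and Lyz2cre, Rab3d 34.8 and 27.2 TPM, and Rab27a, of secretory lysosomes, 10.9 and 11.6 TPM. Rab13 averaged 7.39 and 8.51 TPM and Rab3a 2.82 and 2.40 TPM. In all 5 the libraries overlapped.

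In the ER and Golgi group, which as set here leaves out Rab34 and Rab29, 0 of 10 tested passed limma and 2 had an unadjusted p below 0.05. Rab1a, which carries cargo from the ER to the Golgi, stood at 182.22, 129.32 and 166.74 TPM for WT, 212.85, 189.74 and 239.55 TPM for Lyz2cre and 246.62 TPM for CD11ccre. Both Cre lines were above all WT libraries, but the log2 fold changes of 0.43 and 0.64 were not called (adjusted p = 0.149 and 0.155). Rab6a, of retrograde Golgi traffic, was lower, at 88, 72.67 and 89.24 TPM for WT, 59.97, 46.2 and 64.2 TPM for Lyz2cre and 65.12 TPM for CD11ccre. Its difference of -0.55 for Lyz2cre missed the threshold (adjusted p = 0.0874) and passed with protein-coding genes alone (0.0468). Rab2a, which acts at the Golgi and in delivery to lysosomes, stood at 132.43, 103.62 and 113.01 TPM for WT, 98.9, 92.23 and 96.61 TPM for Lyz2cre and 85.34 TPM for CD11ccre (adjusted p = 0.231 and 0.200). Rab19 stood at 21.66, 18.51 and 17.67 TPM for WT, 17.46, 12.78 and 14.88 TPM for Lyz2cre and 18.84 TPM for CD11ccre. Rab2a and Rab19 libraries of Lyz2cre were below those of WT without passing. Rab43 varied widely within genotypes, at 22.85, 11.26 and 2.55 TPM for WT and 28.55, 21.12 and 3.45 TPM for Lyz2cre. A large part of its transcripts (77.0% of 75-base windows) is shared with the overlapping model Gm45140. Rab1b and Rab18, which serve early secretion and lipid droplets, averaged 93.4 and 84.8 TPM for WT and 109 and 81.9 TPM for Lyz2cre.

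Of the 4 other tested Rabs none passed limma and 1 had an unadjusted p below 0.05. That was Rab28, known from cilia and photoreceptors, at 33.4, 27.89 and 27.94 TPM for WT, 21.06, 21.73 and 21.32 TPM for Lyz2cre and 23.11 TPM for CD11ccre. All Lyz2cre libraries were below WT, with a log2 fold change of -0.45 (adjusted p = 0.0892). Rab24, linked to autophagy, stood at 26.3, 25.29 and 15.86 TPM for WT, 21.01, 25.84 and 21.49 TPM for Lyz2cre and 16.69 TPM for CD11ccre, with overlapping groups. Rab40c averaged 11.4 and 12.3 TPM and Rab23, an inhibitor of Hedgehog signalling, 2.08 and 3.31 TPM for WT and Lyz2cre.

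Counted over the 42 tested genes, 5 had all Lyz2cre libraries above WT (Rab34, Rab7, Rab31, Rab8a and Rab1a) and 9 had all below (Rab29, Rab5a, Rab21, Rab14, Rab4a, Rab6a, Rab2a, Rab19 and Rab28). These are 11.9% and 21.4% of the members, beside 7.45% and 23.3% of all tested genes, or 30.8% in either direction. The split turned with the scaling: after median-of-ratios scaling 8 Rab genes lay above and 3 below, beside 13.9% and 12.4% of all tested genes. Over all alternatives 58 of 748 Lyz2cre values of single members changed sign.

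**Figure D3:**
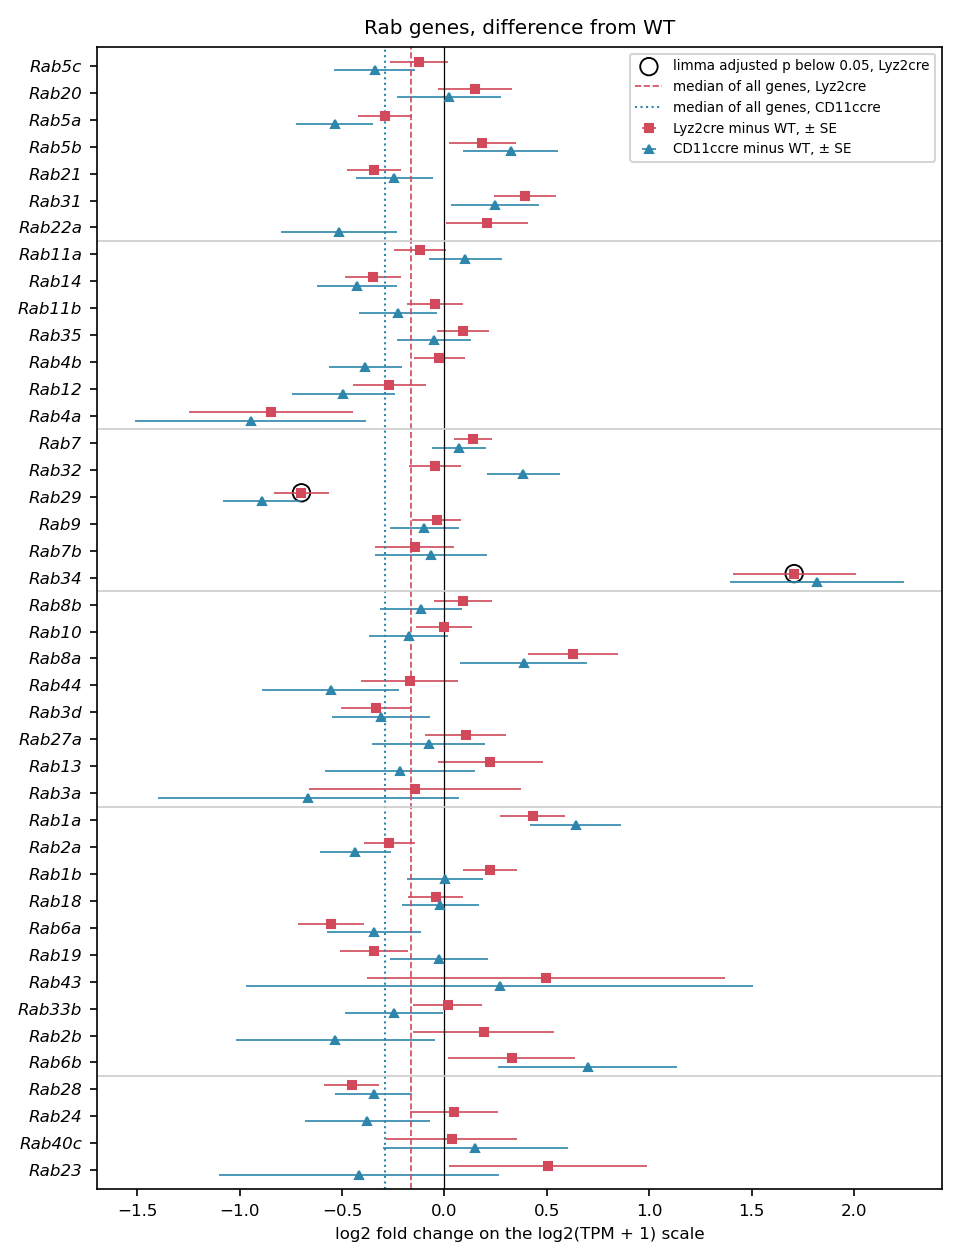
Log2 fold change from WT on the log2(TPM + 1) scale for the 42 tested Rab genes, with SE, for Lyz2cre (squares) and CD11ccre (triangles), which share the WT libraries; dashed and dotted lines mark the median of all tested genes (-0.16 and -0.29). Only Rab34 at 1.71 and Rab29 at -0.70, circled, passed limma in Lyz2cre.

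Summed over all 59 members the family held 2815 TPM ± 170 in WT, 2758 TPM ± 99.3 in Lyz2cre (SD, n = 3 each) and 2676.52 TPM for CD11ccre. The recycling group summed to 681 TPM ± 36.1 in WT and 611 TPM ± 39.3 in Lyz2cre, the early endosome group to 535 TPM ± 45.4 and 509 TPM ± 15.5, and the secretory group to 358 TPM ± 19.1 and 380 TPM ± 34.0. ER and Golgi Rabs summed to 587 TPM ± 70.6 and 610 TPM ± 32.3. WT and Lyz2cre libraries overlapped in each of these sums. The median log2 fold change in Lyz2cre was 0.15 for the early endosome, -0.12 for the recycling endosome, -0.04 for the late endosome and lysosome, 0.04 for the secretory and 0.10 for the ER and Golgi genes tested, and no test between the groups was run.

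**Figure D4:**
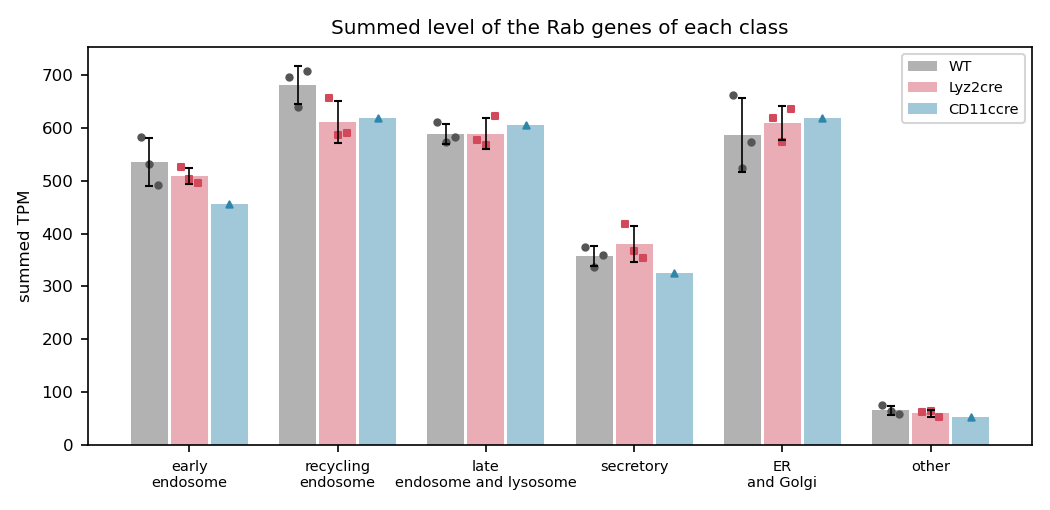
Summed TPM of the Rab genes of each group, as bars for the mean, points for libraries and SD for WT and Lyz2cre; CD11ccre is 1 library. The late endosome and lysosome sums of WT and Lyz2cre are both 589 TPM, and the largest gap, in the recycling group, is 681 against 611 TPM with overlapping libraries.

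In CD11ccre against WT, 0 of 42 Rab genes passed limma in either direction and 5 had an unadjusted p below 0.05 (Rab1a, Rab2a, Rab5a, Rab29 and Rab34, chosen after their values were seen), which is 11.9% beside 22.3% of all tested genes. Of all tested genes 2.89% were called, 0.895% higher and 1.99% lower. The median log2 fold change was -0.20 for the Rab genes and -0.29 for all genes. This comparison rests on 1 library that is assumed to vary like the others and that also differed from WT in Lyz2. In CD11ccre against Lyz2cre, the test of a difference between the Cre lines, 0 of 42 passed limma and 2 (4.76%, beside 6.1% of all genes) had an unadjusted p below 0.05, with 0.114% of all genes called, 0.0439% higher and 0.0702% lower. Those 2 were Rab22a, at 12.39, 17.81 and 13.49 TPM for Lyz2cre and 8.32 TPM for CD11ccre (adjusted p = 0.817), and Rab32 (adjusted p = 0.817). Rab34 differed by 0.11 and Rab29 by -0.19 between the lines (adjusted p = 0.990 and 0.935).

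Ratios between paralogues within a library do not change with the scaling of libraries, and 8 pairs were compared. Rab6a to Rab6b stood at 57.5, 60.1 and 30.5 in WT, 23.1, 21.6 and 22.5 in Lyz2cre and 18.3 in CD11ccre, with every Lyz2cre library below WT. Rab6b itself was low, at 1.21 to 2.93 TPM for WT and 2.14 to 2.85 TPM for Lyz2cre. Rab8a to Rab8b stood at 0.429, 0.380 and 0.205 in WT, 0.523, 0.486 and 0.412 in Lyz2cre and 0.459 in CD11ccre, which overlapped. Rab11a to Rab11b averaged 2.31 ± 0.310 in WT and 2.19 ± 0.0924 in Lyz2cre, and Rab5a to Rab5c 0.225 ± 0.0609 and 0.196 ± 0.0249 (SD, n = 3 each; exact two-sided permutation p = 0.6 for both). The smallest exact p among the 8 pairs was 0.1, for Rab6a to Rab6b, which is the smallest that 3 against 3 libraries allow (adjusted p = 0.533).

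Of the 17 untested members 5 (Rab9b, Rab17, Rab26, Rab30 and Rab42) were listed at 0 in every library. Rab25, of epithelial recycling endosomes, stood at 0.67, 4.12 and 1.67 TPM for WT and was listed at 0 in every Lyz2cre and CD11ccre library. Rab37, of mast cell and macrophage secretion, stood at 0.87, 1.15 and 1.94 TPM for WT, 0.4, 0.61 and 0.16 TPM for Lyz2cre and 0.24 TPM for CD11ccre. Both sets of Lyz2cre libraries lay below WT, and with no filter on low values neither passed limma (adjusted p = 0.160 for Rab25 and 0.201 for Rab37). The other 10 never exceeded 1.64 TPM. Among them were the neuronal and endocrine Rab3b and Rab3c and the lysosomal Rab36 and Rab39.

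The proteins that switch Rabs on and off or act on their signal were taken from 5 lists with 126 tested genes. Of these 5 rose and 3 fell in Lyz2cre, a share near the 6.76% of all genes called in either direction. Among secretory effectors 3 of 17 rose, 0 fell and 14 were not called, beside 2.17% of all tested genes called higher. Myo5a, the myosin Va motor that carries Rab27a and Rab11a vesicles along actin, stood at 23.83, 22.62 and 19.22 TPM for WT, 60.64, 47.31 and 59.38 TPM for Lyz2cre and 55.83 TPM for CD11ccre. It rose 2.55-fold (log2 fold change 1.31 ± 0.15 SE, limma adjusted p = 0.00580), passed in all 18 alternatives, and also passed in CD11ccre (0.0301), where the call ended without WT replicate 1 (0.0633), 2 (0.0691) or 3 (0.0515) or Lyz2cre replicate 1 (0.0601) or 3 (0.0542). Mlph, the melanophilin that links Rab27a to myosin Va in pigment cells, stood at 2.22, 5.35 and 2.53 TPM for WT, 8.1, 11.66 and 12.07 TPM for Lyz2cre and 12.21 TPM for CD11ccre. It rose 3.15-fold (adjusted p = 0.0371), whereas the third partner of that complex, Rab27a, stood at 9.17, 13.78 and 9.62 TPM for WT, 12.78, 10.78 and 11.18 TPM for Lyz2cre and 10.08 TPM for CD11ccre (adjusted p = 0.798). Optn, optineurin, an effector of Rab8 and autophagy receptor, stood at 7.09, 7.97 and 4.46 TPM for WT and 15.6, 14.68 and 15.05 TPM for Lyz2cre, a 2.32-fold rise (0.0283), and at 9.08 TPM for CD11ccre (0.420).

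Of 41 endosome and lysosome effectors and tethers 2 rose, 0 fell and 39 were not called, beside 2.17% of all tested genes called higher. Rilpl2, which binds myosin Va and Rabs phosphorylated by LRRK2, stood at 73.16, 99.21 and 62.76 TPM for WT, 165.97, 157.05 and 125.67 TPM for Lyz2cre and 127.99 TPM for CD11ccre, a 1.91-fold rise in Lyz2cre (limma adjusted p = 0.0345). Vps45, a Sec1-type protein of early endosome fusion, stood at 16.31, 12.16 and 14.44 TPM for WT, 34.7, 22.06 and 30.12 TPM for Lyz2cre and 13.99 TPM for CD11ccre. It rose 2.02-fold in Lyz2cre (0.0387) and lay inside the WT range in CD11ccre, but the difference between the Cre lines was not called (0.769). The early endosome tether Eea1 averaged 10.3 and 9.48 TPM and the Rab34 and Rab7 effector Rilp 4.61 and 2.46 TPM for WT and Lyz2cre (adjusted p = 0.777 and 0.271).

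Of 30 exchange factors 3 fell, 0 rose and 27 were not called, beside 4.60% of all tested genes called lower in Lyz2cre. For CD11ccre against WT that share was 1.99%. Hps4, a subunit of the exchange factor for Rab32 and Rab38, stood at 34.28, 35.33 and 44.11 TPM for WT, 20.89, 19.54 and 16.6 TPM for Lyz2cre and 13.09 TPM for CD11ccre. It fell 1.99-fold in Lyz2cre (limma adjusted p = 0.0182) and passed in CD11ccre (0.0263), while its partner subunit Hps1 averaged 16.6 and 16.9 TPM for WT and Lyz2cre. Rab3il1, which activates Rab8, stood at 31.11, 25.34 and 32.34 TPM for WT, 15.12, 15.46 and 18.07 TPM for Lyz2cre and 16.98 TPM for CD11ccre, a 1.83-fold fall (0.0258). Rin2, which activates Rab5, stood at 106.79, 102.31 and 111.45 TPM for WT, 82.09, 65.1 and 67.58 TPM for Lyz2cre and 90.57 TPM for CD11ccre, a 1.49-fold fall (0.0403). The calls of Rab3il1 and Rin2 ended with median-of-ratios scaling (0.0664 and 0.113). In CD11ccre against WT 3 exchange factors fell, Hps4, Ric1 (an activator of Rab6a, 7.6 TPM against 21.7 TPM ± 1.61, adjusted p = 0.0301) and Dennd1c (3.98 TPM against 11.4 TPM ± 1.44, adjusted p = 0.0454; SD, n = 3 in WT). In Lyz2cre those last 2 averaged 13.5 and 6.79 TPM and were not called (0.0566 and 0.0709).

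The calls of these partners other than Myo5a in Lyz2cre each ended when certain single libraries were left out, named here by group and replicate number, with the limma adjusted p in parentheses. For Mlph these were WT 1 (0.0969), WT 3 (0.0831), Lyz2cre 1 (0.0655), Lyz2cre 2 (0.11) or Lyz2cre 3 (0.129). The Optn call was lost without WT 1 (0.0653), Lyz2cre 1 (0.0924), Lyz2cre 2 (0.0853) or Lyz2cre 3 (0.101). Rilpl2 lost its call without WT 1 (0.0969), WT 3 (0.0699), Lyz2cre 1 (0.108), Lyz2cre 2 (0.0999) or Lyz2cre 3 (0.0657). For Vps45 the libraries were WT 1 (0.0723), WT 2 (0.107), WT 3 (0.0775), Lyz2cre 1 (0.112) or Lyz2cre 3 (0.13). Hps4 in Lyz2cre was no longer called without WT 2 (0.0516), Lyz2cre 2 (0.0615) or Lyz2cre 3 (0.0726). The Rab3il1 call ended without WT 1 (0.0825), WT 3 (0.0613), Lyz2cre 1 (0.0898), Lyz2cre 2 (0.0879) or Lyz2cre 3 (0.0657). That of Rin2 ended without WT 1 (0.102), WT 2 (0.0909), WT 3 (0.0811), Lyz2cre 2 (0.115) or Lyz2cre 3 (0.135). Processing ended some calls too. With no filter on low values, Rilpl2 (0.0983), Vps45 (0.0963), Mlph (0.105), Optn (0.0783), Rab3il1 (0.0559) and Rin2 (0.0696) were not called in Lyz2cre. Limma without the trend ended the calls of Rilpl2, Vps45, Mlph and Rin2. The replicate number as a block ended those of Optn, Hps4, Rab3il1 and Rin2. In CD11ccre both settings ended the calls of Myo5a, Hps4, Ric1 and Dennd1c. In CD11ccre, Hps4 was lost without WT 1 (0.0588), WT 2 (0.0632), Lyz2cre 1 (0.05) or Lyz2cre 2 (0.0557). Ric1 in CD11ccre was lost without WT 1 (0.0742), WT 2 (0.0632), WT 3 (0.0554), Lyz2cre 2 (0.0573) or Lyz2cre 3 (0.0524), and with median-of-ratios scaling (0.0518). Dennd1c in CD11ccre was lost without WT 1 (0.0972), WT 2 (0.0863), WT 3 (0.0641), Lyz2cre 1 (0.082), Lyz2cre 2 (0.0824) or Lyz2cre 3 (0.071), and with that scaling (0.0901).

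The GAPs and the prenylation and recycling factors had no call in Lyz2cre by limma, with 5 of 30 and 3 of 8 tested at an unadjusted p below 0.05, beside 24.6% of all tested genes. Gdi2, a GDP dissociation inhibitor that extracts Rabs from membranes, averaged 539 TPM for WT and 405 TPM for Lyz2cre (limma adjusted p = 0.0607). The median log2 fold change of the prenylation and recycling factors was -0.27, beside -0.16 for all genes, and -0.12 with median-of-ratios scaling.

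**Figure D5:**
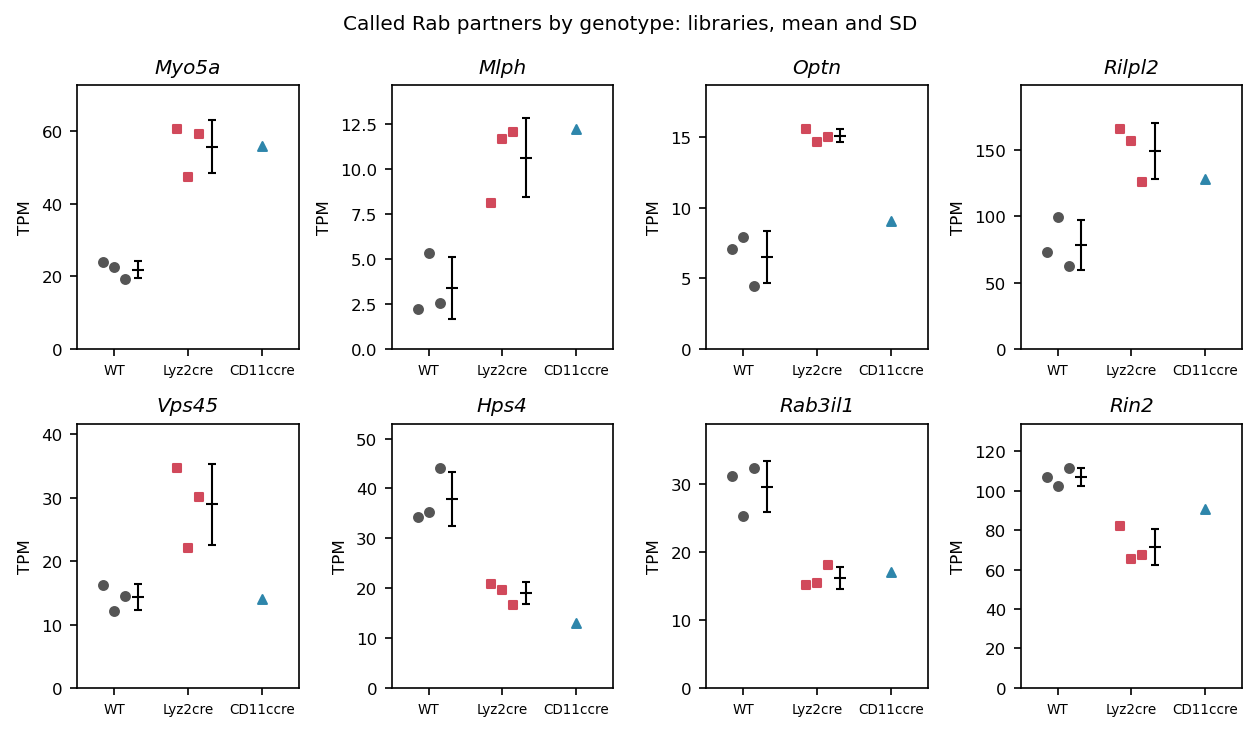
TPM (linear axis from 0) of the 8 Rab partners called in Lyz2cre against WT, by library, with mean and SD for WT and Lyz2cre; CD11ccre is 1 library. Myo5a, Mlph, Optn, Rilpl2 and Vps45 are higher and Hps4, Rab3il1 and Rin2 lower in Lyz2cre than in every WT library, while Vps45 in CD11ccre (13.99 TPM) lies inside the WT range.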

How the data were processed

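Values are TPM as deposited by the authors, 1 column per library. Per the submitters' processing notes, the tools were RSEM 1.3.1, STAR 2.7.0d and cutadapt 2.3, on mm10. The annotation release and strand setting were not given in the sources used here. TPM keeps no depth, so no counting interval can be given. Genes with a mean of at least 1 TPM over the 7 libraries were tested on log2(TPM + 1) with limma 3.58.1 in R 4.3.3, with 1 coefficient per genotype and a mean-variance trend, and Benjamini-Hochberg adjustment over all tested genes at 0.05 (two-sided). Simulated data for Lyz2cre against WT held 11182 genes, with changes set in genes drawn at random. The fit recovered 36 of 100 genes changed by 1 on the log2 scale and 78 of 100 changed by 2, with 8 false calls. The shares recovered for Rab genes alone were not measured, and a member that missed the threshold may still differ. Full values were given for called members, the most abundant of each group and those whose WT and Lyz2cre libraries do not overlap. Library values of Rab43, Rab27a and Rab22a were also given, outside this rule and with their values known. From the partner lists, called genes were named, and Lrrk2, Eea1, Rilp, Hps1 and Gdi2 were chosen after their values were seen. Ratios used exact permutation tests (scipy 1.17.1). Positions and shared windows are from GENCODE M21. Members and lists were chosen with earlier results of these data known. Alternatives changed the pseudocount, filter, scaling, limma settings, replicate block and libraries used.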

Additional observations from a re-analysis of the deposited data

How the results depend on the processing

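Counts of called Rab genes were small and moved with the processing. With no filter on low values Lyz2cre against WT had 0 higher and 0 lower, and CD11ccre had 1 higher against WT and 1 higher against Lyz2cre, which was Rab38, at 0.6 TPM against libraries all listed at 0. Median-of-ratios scaling, rescaling without Ftl1, Fth1, Chil3 and Lyz2, and limma without the trend each left 0 lower in Lyz2cre. Rescaling to protein-coding genes gave 2 lower in Lyz2cre, and 1 higher and 1 lower in CD11ccre against WT. A mean of at least 5 TPM, and robust empirical Bayes, each gave 1 lower in CD11ccre against WT. Leaving out 1 WT or Lyz2cre library gave 0 to 1 higher and 0 to 1 lower in Lyz2cre against WT. The cause was not tested. With the replicate number as a block, 0 Rab genes were lower in Lyz2cre, Rab29 had an adjusted p of 0.0525, and the calls over all genes went from 247 higher and 524 lower to 171 and 219. Libraries of the same number had deviations correlated at -0.0149, 0.0431 and 0.0656. For WT and Lyz2cre libraries of unlike number the correlations ran from -0.0975 to 0.0599. These ranges overlapped, so the numbers are not taken to pair the libraries. No value of a called Rab gene changed sign.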
